A study of Mus musculus with 9 samples.

Results

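Heat shock proteins are molecular chaperones, and the 10 genes described here, read in round spermatids (RS), encode some of them and of the factors that control them: Hspa2, Hspa1l, Hspa8, Hspa1b and Hspa4l of the HSP70 and HSP110 families, the cytosolic HSP90 genes Hsp90aa1 and Hsp90ab1, the co-chaperone gene Dnajb1, and the heat shock factor genes Hsf1 and Hsf2. They were chosen by name, as rows of the deposited table that carry these symbols, and make up 10 of the 55414 genes listed. PolyA-selected RNA of WT mouse RS, haploid germ cells sorted from adult testis, was sequenced after 24 h in a medium with dialyzed serum. The study asked how L-2-hydroxyglutarate (L-2HG), a metabolite that lactate dehydrogenase can make in these cells, bears on gene expression. All 9 libraries came from cells in the same 0.15% DMSO. The vehicle group (libraries 1 to 3) had DMSO alone, the oxamate group (libraries 4 to 6) had 24 mM oxamate, an inhibitor of lactate dehydrogenase, and the third group (libraries 7 to 9, here called oxamate + L2HG) had 24 mM oxamate with 0.3 mM octyl-L2HG, a form of L-2HG that enters cells. The sort relied on a reporter that Stra8-iCre switches on in the germ line of C57Bl/6 mice, and no group with octyl-L2HG alone was analysed here. The incubation temperature of RS is not given in the sources used here. No source says that the 3 libraries of a group came from separate animals, so the p-values measure only the spread between these samples, which may be technical.

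HSP70 proteins hold unfolded stretches of other proteins in a cycle of ATP binding and hydrolysis, J-domain proteins such as DNAJB1 start the hydrolysis, and HSP110 proteins such as HSPA4L help to release the nucleotide. HSP90 acts later, on proteins that are nearly folded. Heat shock factors bind heat shock elements in promoters when proteins are damaged, and in the testis the usual stress response is altered: germ cells make their own HSP70 proteins, HSPA2 and HSPA1L, as part of their programme of differentiation, and HSF1 and HSF2 also work there without heat.

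The libraries held 32339533 to 39888396 counted reads. All 9 of 9 RS markers were detected, and their summed level was 81440 to 83109 normalized counts in vehicle, 79399 to 81045 with oxamate and 81482 to 83644 with oxamate + L2HG. Single markers within this sum moved: 0 were higher and 2 lower with oxamate against vehicle, 0 and 3 with both compounds against oxamate, and 2 and 4 with both against vehicle. That is 22.2%, 33.3% and 66.7% of the 9 called at an edgeR adjusted p under 0.05, beside 5.19%, 11.2% and 18.0% of all genes tested. Prm1, a protamine gene of late spermatids, had means of 4915, 3591 and 2919 normalized counts in the 3 groups, and Tnp1, a transition protein gene, 6912, 5738 and 4769. The markers of meiotic cells summed to 5277 to 6462 normalized counts over all libraries, and those of spermatogonia to 240 to 258 in vehicle, 275 to 286 with oxamate and 264 to 278 with oxamate + L2HG. Myoid markers summed to 83.4 to 89.7 in vehicle, 97.2 to 109 with oxamate and 79.6 to 93.2 with both compounds, and Leydig markers to 28.4 to 38.2, 19.7 to 27.6 and 31.4 to 40.3, so that myoid markers were above and Leydig markers below both other groups in every oxamate library. Sertoli markers summed to 34.1 to 55.1, 41.7 to 63.8 and 39.3 to 47.7, and macrophage markers to 105 to 124, 94.3 to 106.3 and 96.6 to 117. Single Sertoli, Leydig and macrophage markers ranged from 1 count over all 9 libraries for Cldn11 (Sertoli), Hsd3b1 and Insl3 (Leydig) and C1qa (macrophages) to 382 for Amhr2 (Sertoli), 115 for Star (Leydig) and 620 for Adgre1 (macrophages). The part of these shifts in the results was not tested. Oxamate library 4 stood apart: a chi-square of counts over genes gave 16.7 and 20.7 per degree of freedom against oxamate libraries 5 and 6, while libraries 5 and 6 gave 1.98 against each other. Vehicle library 1 gave 10.7 and 10.1 against vehicle libraries 2 and 3, which gave 5.86, and the third group 2.27 to 6.42. Results that rest on oxamate library 4 are given with and without it. In bulk RNA, fewer cells of a type and less RNA per cell cannot be told apart.

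The promoters of 4 genes are shown first, because the results below turn on Hsf2 and on the neighbouring genes Hspa1l, Hspa1a and Hspa1b. Hspa1a, not itself among the 10, is the near-identical copy of Hspa1b. The sequences are the 250 bases before the RefSeq start of each gene (build GRCm38.p6, 5′ to 3′ on the strand of the gene), and RefSeq gave a promoter for 6 of the 10 genes. The capitals mark the heat shock element, read as GAANNTTC or TTCNNGAA, in the first pair, the letters TGACG of a CRE-like element in Hspa1l, and CCAAT or ATTGG boxes in Hsf2.
Hspa1b (chr17:34959239-34959488, minus strand): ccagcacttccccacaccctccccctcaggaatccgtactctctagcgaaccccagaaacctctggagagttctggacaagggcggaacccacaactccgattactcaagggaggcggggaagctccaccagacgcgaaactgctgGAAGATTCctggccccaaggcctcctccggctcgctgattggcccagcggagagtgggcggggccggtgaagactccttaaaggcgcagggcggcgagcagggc
Hspa1a (chr17:34972157-34972406, minus strand): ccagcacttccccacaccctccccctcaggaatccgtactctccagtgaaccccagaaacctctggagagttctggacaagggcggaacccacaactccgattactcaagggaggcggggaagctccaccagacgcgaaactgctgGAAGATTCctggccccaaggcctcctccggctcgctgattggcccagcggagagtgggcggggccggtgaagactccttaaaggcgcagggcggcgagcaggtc
Hspa1l (chr17:34972453-34972702, plus strand): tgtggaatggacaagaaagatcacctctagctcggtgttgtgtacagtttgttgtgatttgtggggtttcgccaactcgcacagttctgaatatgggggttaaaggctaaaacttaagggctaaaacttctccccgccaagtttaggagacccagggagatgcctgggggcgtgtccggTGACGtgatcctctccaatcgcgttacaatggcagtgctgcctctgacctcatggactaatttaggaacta
Hsf2 (chr10:57486135-57486384, plus strand): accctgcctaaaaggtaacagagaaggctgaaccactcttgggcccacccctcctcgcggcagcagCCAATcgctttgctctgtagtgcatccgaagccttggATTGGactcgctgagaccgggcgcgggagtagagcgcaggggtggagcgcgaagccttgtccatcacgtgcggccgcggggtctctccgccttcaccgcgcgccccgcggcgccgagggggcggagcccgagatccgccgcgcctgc

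The 250 bases of Hspa1a and Hspa1b differed at 3 positions (98.8% identical), and each held the heat shock element at the same place, 104 bases before the start. Among all 32851 RefSeq promoters of this length, 12.8% held such an element. Of the 6 genes with a promoter, Hspa1b was the one that held it, and Hspa2, Hspa1l, Hspa4l, Dnajb1 and Hsf2 had no match to these letters in the window, which says nothing about the factors. RefSeq gave Dnajb1 a second start, and the 250 bases before it (chr8:83608298-83608547, plus strand) held no heat shock element and neither TGACG nor CCAAT on either strand, so what follows for Dnajb1 is its other promoter (chr8:83607925-83608174). TGACG or its complement CGTCA stood once each in the promoters of Hspa2, Hspa1l, Hspa4l and Dnajb1 (17.8% of all promoters), and CCAAT or ATTGG stood in those of Hspa2, Hspa1l, Hspa1b, Dnajb1 and, at 184 and 147 bases before the start, Hsf2 (33.9% of all promoters). TGACG and CCAAT were chosen after the sequences were seen. The starts of Hspa1a and Hspa1l lie 547 bases apart on opposite strands, so this pair points away from a shared stretch.

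Transcript levels of the 10 genes spanned a very wide range in RS. Per kilobase of exon (the union of annotated exons, so a gene with a long annotated end that these cells do not use is underestimated), the mean normalized count in vehicle was 29783 ± 632 (SD, n = 3) for Hspa2, the testis HSP70 that male meiosis requires, which ranked 14 of the 25128 genes tested by its normalized count. Next came Hsp90aa1 at 11828 ± 693, the inducible form of cytosolic HSP90 that germ cells make without stress, and Dnajb1 at 6057 ± 491. Hspa4l followed at 3443 ± 135 and Hspa1l at 2548 ± 123 per kilobase. The constitutive genes of most somatic cells were lower: Hsp90ab1 had 1380 ± 40.4 and Hspa8, the constitutive HSC70, 160 ± 6.0 normalized counts per kilobase. The factor genes stood at 432 ± 23.3 for Hsf2 and 187 ± 6.69 for Hsf1. In this order of levels per kilobase no gene overlapped the next one over the 3 vehicle libraries, Hsf1 and Hspa8 being the closest with a ratio of 1.17. The order of that pair is uncertain, since 33.1% of the 75-base windows of Hspa8 transcripts occur also in other genes, against 0 of those of Hsf1, and for Hsp90aa1 the share is 42.8%. Other ranks depend on the annotated lengths, 11792 bases for Hspa4l, 9606 for Hsf2 and 7099 for Hsf1, against 2472 to 4301 for the other tested genes. Overlap between libraries does not measure that error. By normalized count alone, Hspa4l (40601) stood above Dnajb1 (19406).

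Hspa1b, a classical heat-inducible HSP70 gene, was at the floor. It had 2 counts in all 9 libraries, 1 in vehicle library 1 and 1 in oxamate + L2HG library 7, which is under the minimum of 10 counts for a test and also under a floor of 3 counts, so it has no fold change. The other 9 genes had at least 6462 counts each over the 9 libraries and were tested. Of the 75-base windows of Hspa1b transcripts, 55.8% occur also in another gene, mostly Hspa1a, and reads from such windows cannot be placed in one copy. Both copies together had 99 counts.

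**Figure D1:**
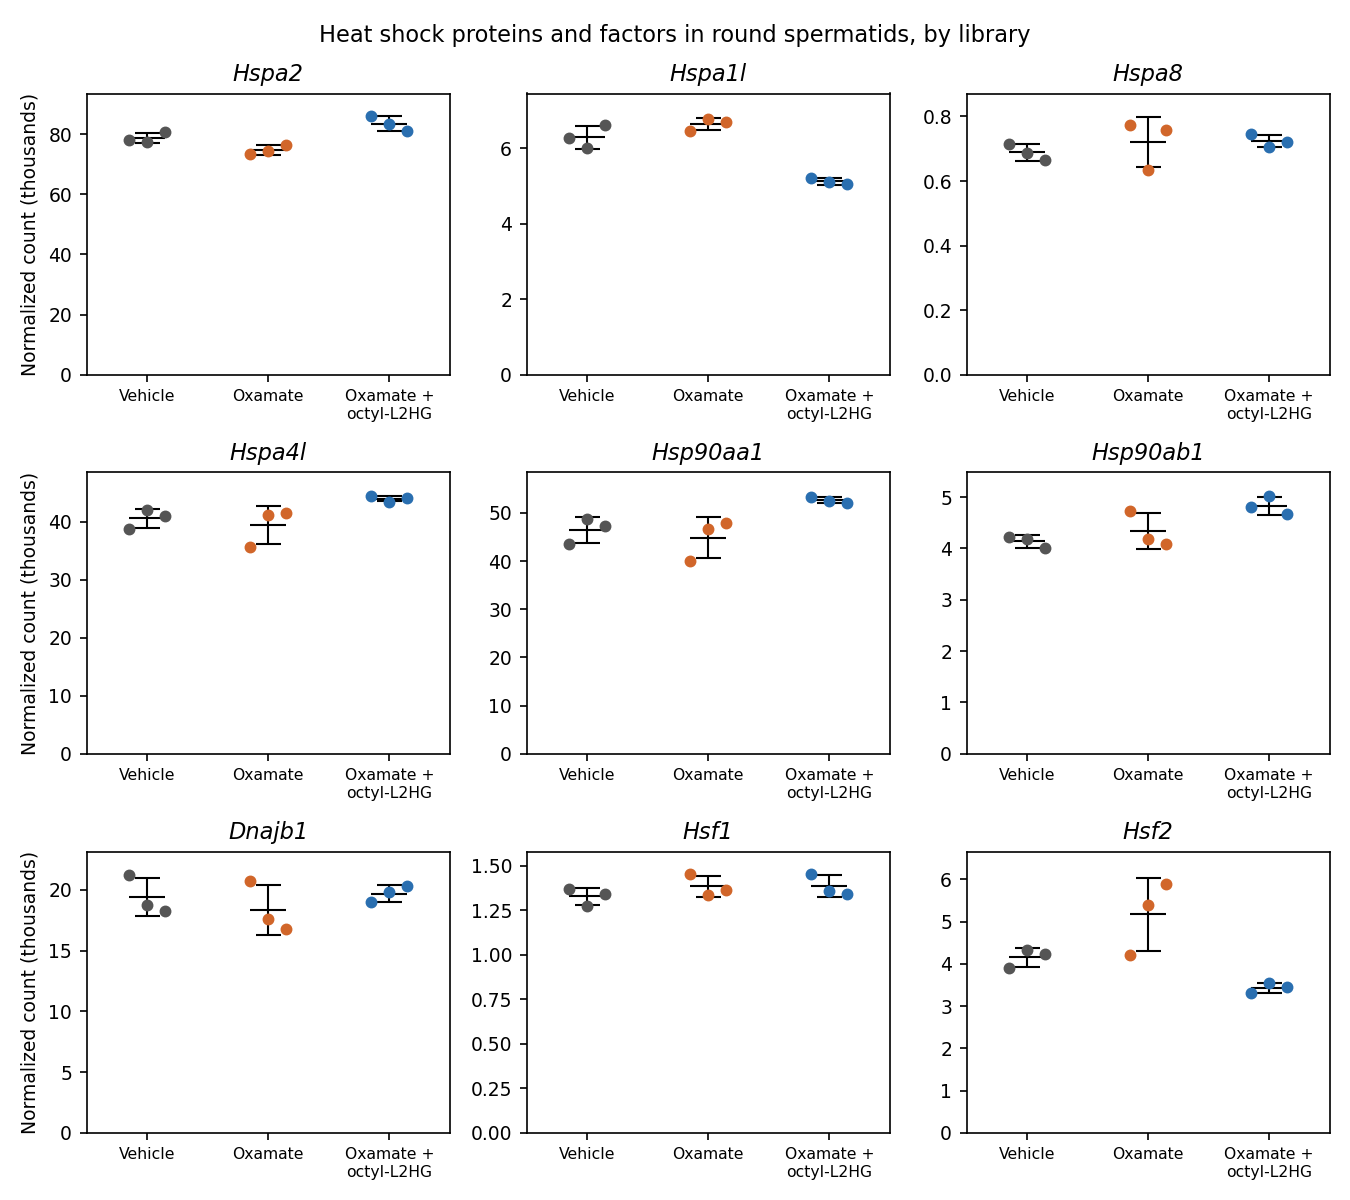
Normalized count (in units of 1000, axes starting at 0) of the 9 tested genes in each library, with vehicle in grey, oxamate in orange and oxamate + octyl-L2HG in blue, the libraries of a group in numerical order from left to right. Horizontal bars are group means and whiskers 1 SD (n = 3): Hspa1l is lowest in the 3 libraries with both compounds, and Hsf2 is highest in oxamate libraries 5 and 6 and lowest with both compounds.

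Oxamate against vehicle asks what changes when lactate dehydrogenase is inhibited. Of the 9 tested genes, Hsf2 was the only one to pass, at an edgeR adjusted p under 0.05, and it was higher; 5.19% of all genes tested passed, 3.97% as higher and 1.22% as lower. The median log2 difference of the 9 was 0.065, and that of all genes tested −0.011. Over tested genes with a mean of at least 100 normalized counts, as all 9 had, it was 0.01. The groups did not overlap for 1 of the 9, Hspa2, against 21.3% of all genes tested, 9.95% as lower.

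Hsf2 encodes a heat shock factor of development and gametogenesis. Its normalized counts were 3897, 4317 and 4241 in the vehicle libraries and 4214, 5405 and 5890 in the oxamate libraries. Oxamate libraries 5 and 6 lay above all vehicle libraries and oxamate library 4 lay among them, so the groups overlapped. The log2 fold change was 0.32 ± 0.09 (SE) with a 95% interval of 0.14 to 0.50 and an adjusted p of 0.0355 by edgeR's quasi-likelihood test. Without oxamate library 4 it was 0.44 (adjusted p = 2.32e-06), while leaving out any other single library ended the call: vehicle libraries 1, 2 and 3 (adjusted p = 0.117, 0.0758 and 0.107), oxamate libraries 5 and 6 (log2 fold change 0.29 and 0.22, adjusted p = 0.139 and 0.192) and libraries 7, 8 and 9 of the third group, which enter through the shared spread (adjusted p = 0.062, 0.0629 and 0.0654). With total counts as the scaling, a stricter filter on low counts or a fit of these 2 groups alone the call was lost too (adjusted p = 0.0627, 0.0529 and 0.119).

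Hspa2 was slightly lower in each oxamate library, but not past the test. Its normalized counts were 78162, 77451 and 80629 in vehicle and 73368, 74410 and 76464 with oxamate. The groups did not overlap. The log2 difference of −0.07 had a 95% interval of −0.19 to 0.04 and an adjusted p of 0.573 by edgeR's quasi-likelihood test.

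For the other 7 genes the oxamate and vehicle libraries overlapped and the log2 differences lay between −0.07 and 0.08. Dnajb1, whose product drives the HSP70 cycle, had a log2 difference of −0.07 with a 95% interval of −0.24 to 0.09. It was −0.17 without oxamate library 4 (adjusted p = 0.066) and −0.13 without vehicle library 3, and moved to −0.0058 and −0.0099 without vehicle library 1 or oxamate library 6. Hspa8 had an interval of −0.10 to 0.25, and its difference of 0.07 was 0.0096 without oxamate library 4 and 0.16 without library 5. The intervals of Hspa1l (−0.04 to 0.21), Hspa4l (−0.17 to 0.10), Hsp90aa1 (−0.19 to 0.09), Hsp90ab1 (−0.07 to 0.22) and Hsf1 (−0.08 to 0.21) also included 0. Without oxamate library 4, the differences of Hspa4l, Hsp90aa1 and Hsp90ab1 changed sign, from −0.04, −0.05 and 0.07 to 0.03, 0.02 and −0.003. A p that misses the threshold does not show that oxamate left a gene as it was. Most of the windows that Hspa8 shares lie in Gm15459, which had 7 counts in all. Reads from shared windows cannot be placed in one gene, so this low count does not show how many Hspa8 reads were lost.

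**Figure D2:**
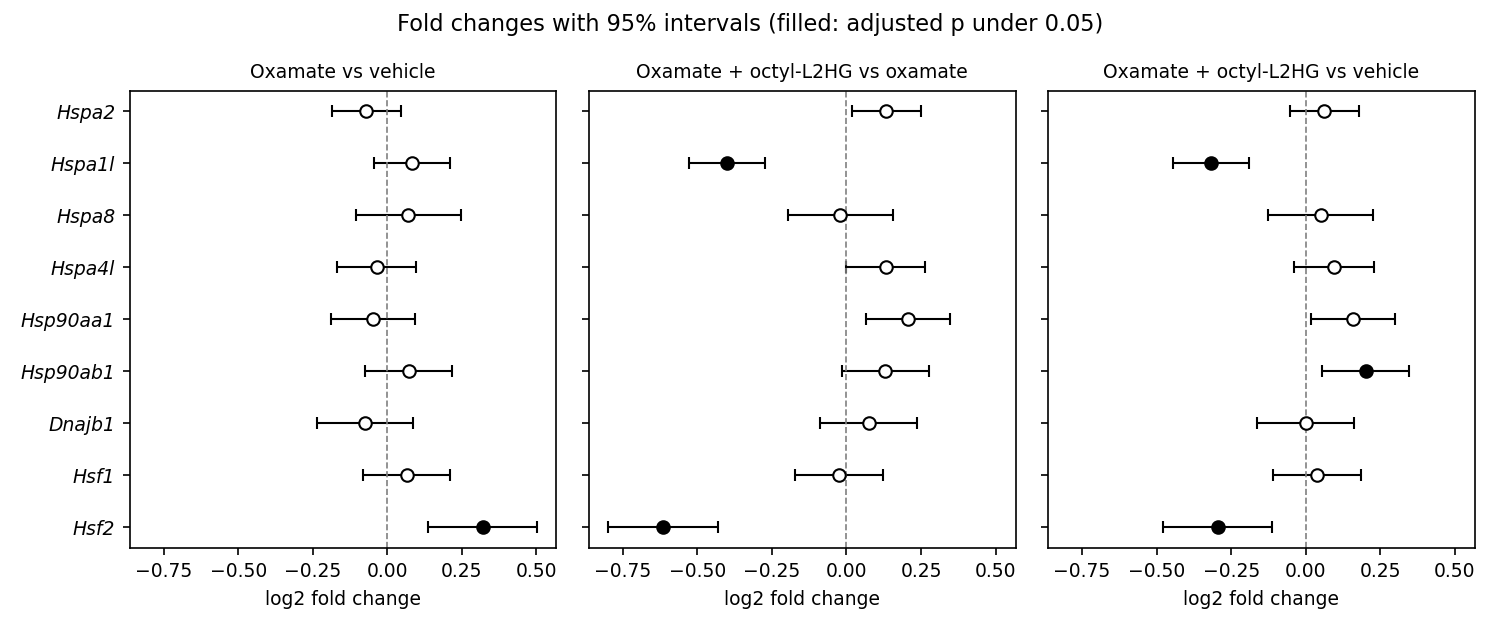
Log2 fold change (horizontal axis) of the 9 tested genes in the 3 comparisons, with 95% intervals from edgeR's quasi-likelihood fit; filled points have an adjusted p under 0.05. Hsf2 is filled in all 3 panels (0.32, −0.61 and −0.30), Hspa1l in both comparisons of oxamate + octyl-L2HG (−0.40 and −0.32), and Hsp90ab1 in the one against vehicle (0.20).

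Oxamate + L2HG against oxamate asks what the added metabolite changes in cells with the inhibitor. Of the 9 tested genes, 2 passed, Hsf2 and Hspa1l, both lower, and 11.2% of all genes tested passed, 3.18% as higher and 8.06% as lower. The libraries of both groups did not overlap for 5 of the 9 genes, 3 of them higher, against 28.8% of all genes tested. The median log2 difference was 0.074 over the 9 genes, −0.039 over all genes tested and 0.01 over those with a mean of at least 100 normalized counts. This comparison shares the oxamate libraries with the one before, so a high oxamate value enters both, with opposite signs.

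In the libraries with both compounds Hsf2 had 3315, 3539 and 3446 normalized counts, against 4214, 5405 and 5890 with oxamate. All 3 were below every oxamate library. The log2 fold change was −0.61 ± 0.09 (SE; 95% interval −0.80 to −0.43; adjusted p = 9.99e-05, edgeR's quasi-likelihood test), and without oxamate library 4 it was −0.74.

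Hspa1l encodes an HSP70 of late germ cells. It had 6473, 6784 and 6702 normalized counts in the oxamate libraries and 5225, 5110 and 5052 with both compounds. Each library with both compounds was below the other 6. The log2 fold change of −0.40 ± 0.06 (SE; 95% interval −0.53 to −0.27) had an adjusted p of 0.000196 by edgeR's quasi-likelihood test. The call held under all 16 alternatives, from −0.45 to −0.36. On the opposite strand, the annotated antisense gene Gm10501 covers 71.1% of the 75-base windows of Hspa1l, while 7.09% of these windows occur in another gene on the same strand. The library kit (KAPA Stranded mRNA) keeps strand, yet the strand setting of the counting is not given in the sources used here, so whether reads of this pair were kept apart is not known. Gm10501 itself had 799 counts over the 9 libraries, 83 to 100 per vehicle library, 93 to 109 per oxamate library and 46 to 93 with both compounds, against 55060 for Hspa1l.

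Hsp90aa1, the stress-inducible cytosolic HSP90, had 40011, 46655 and 47938 normalized counts with oxamate and 53405, 52558 and 52063 with both compounds. The groups did not overlap, but with a log2 difference of 0.21 ± 0.07 (SE; 95% interval 0.07 to 0.35) its adjusted p of 0.053 by edgeR's quasi-likelihood test missed the threshold. It passed under 6 of 16 alternatives, among them DESeq2's test (adjusted p = 0.0197), and without oxamate library 4, its lowest library, the difference was 0.13 (adjusted p = 0.0954). The annotated gene Gm12346, which shares 36.2% of the windows of Hsp90aa1, had 74 counts in all, a count that does not show how many Hsp90aa1 reads were lost.

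The most abundant HSP70 and the HSP110 gene were also a little higher in each library with both compounds. Hspa2 had 85913, 83311 and 81167 normalized counts there, against 73368 to 76464 with oxamate, and Hspa4l had 44401, 43507 and 44172 against 35738 to 41574. Neither gene passed the test (log2 difference 0.13 and 0.13, adjusted p = 0.137 and 0.221 by edgeR's quasi-likelihood test). Without oxamate library 4, the lowest of its group for Hspa4l, the difference of that gene was 0.07 (adjusted p = 0.451). DESeq2's test put Hspa2 past the threshold (adjusted p = 0.033).

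Hsp90ab1, the constitutive cytosolic HSP90 gene, had 4732, 4183 and 4080 normalized counts with oxamate and 4801, 5021 and 4668 with both compounds. The groups overlapped through oxamate library 4, and the log2 difference of 0.13 (adjusted p = 0.275, edgeR's quasi-likelihood test) became 0.20 (adjusted p = 0.0142) without that library. Dnajb1, with 20702, 17583 and 16819 against 18963, 19815 and 20308 normalized counts, likewise overlapped through library 4. Its log2 difference was 0.07 (adjusted p = 0.642), and without that library 0.17 (adjusted p = 0.0421). Hspa8 and Hsf1 differed by −0.02 and −0.03 on the log2 scale, with 95% intervals of −0.20 to 0.16 and −0.17 to 0.12.

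Oxamate + L2HG against vehicle asks how the cells with both compounds differ from untreated ones. Of the 9 tested genes, 3 passed: Hspa1l and Hsf2 were lower and Hsp90ab1 was higher. Of all genes tested 18.0% passed, 7.48% as higher and 10.6% as lower. Groups did not overlap for 6 of the 9 genes, 4 higher and 2 lower, against 36.5% of all genes tested. The medians were 0.05 over the 9 genes, −0.045 over all genes tested and 0.032 over those with a mean of at least 100 normalized counts. This comparison shares libraries with each of the other comparisons.

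Hspa1l, with 6280, 6003 and 6609 normalized counts in vehicle, was lower in all 3 libraries with both compounds (5052 to 5225). Its log2 fold change of −0.32 ± 0.06 (SE; 95% interval −0.45 to −0.19; adjusted p = 0.000823, edgeR's quasi-likelihood test) kept its call under all 16 alternatives. Hsf2 was also below every vehicle library, at 3315 to 3539 against 3897 to 4317 normalized counts, with a log2 fold change of −0.30 ± 0.09 (SE; 95% interval −0.48 to −0.11; adjusted p = 0.0222). For Hsf2 the libraries with both compounds lay below vehicle as well as below oxamate. The Hsf2 call against vehicle was lost without vehicle library 2 or 3 (adjusted p = 0.097 and 0.082) and without library 7, 8 or 9 of the third group (0.115, 0.0582 and 0.067), with log2 fold changes from −0.34 to −0.26 over all libraries left out.

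Hsp90ab1 had 4227, 4185 and 3999 normalized counts in vehicle and 4801, 5021 and 4668 with both compounds. The groups did not overlap. The log2 fold change of 0.20 ± 0.07 (SE; 95% interval 0.06 to 0.35) had an adjusted p of 0.0498 by edgeR's quasi-likelihood test, at the edge of the threshold. It was lost without vehicle library 1, 2 or 3 (adjusted p = 0.067, 0.0882 and 0.172), oxamate library 5 (0.0656) or library 7, 8 or 9 of the third group (0.112, 0.202 and 0.0857), and with total counts as the scaling (log2 fold change 0.14, adjusted p = 0.171), a scaling that moved the median of all genes from −0.045 to −0.109.

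Hsp90aa1, Hspa4l and Hspa2 were above vehicle in each library with both compounds without passing. In vehicle Hsp90aa1 had 43468, 48745 and 47277 normalized counts and Hspa4l 38861, 41987 and 40954. The log2 differences were 0.16 for Hsp90aa1 (95% interval 0.02 to 0.30; adjusted p = 0.116), 0.10 for Hspa4l (−0.04 to 0.23; 0.348) and 0.06 for Hspa2 (−0.05 to 0.18; 0.503), all from edgeR's quasi-likelihood fit; with total counts as the scaling the difference of Hspa2 was −0.0013. Dnajb1 (95% interval −0.16 to 0.16), Hspa8 (0.05, −0.13 to 0.23) and Hsf1 (0.04, −0.11 to 0.19) overlapped with vehicle.

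Across the 3 groups, edgeR's test of any difference passed for 2 of the 9 genes, Hspa1l (adjusted p = 0.000164) and Hsf2 (adjusted p = 0.000122), and for 19.8% of all genes tested. Hsf2 had the widest range of group means among the 9, 0.58 on the log2 scale, followed by Hspa1l with 0.38, while Hsf1 spanned 0.06 and Hspa8 0.07. The genes whose 9 values ran closest to those of Hsf2, by root-mean-square distance of log2 values centred per gene, were Csmd3 (0.04), Wsb1 (0.05) and Map4k3 (0.06), against a median of 0.32 over 10715 genes. Closest to Hspa1l were Samd4, 4931428F04Rik and Ccdc27, each at 0.04 against a median of 0.23. The 3 smallest of 10715 distances lie below the median by selection, so the medians give only the scale and no conclusion is drawn.

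Hspa1a, the copy of Hspa1b, was lower with both compounds, at levels near the detection floor. It had 12, 14 and 15 counts in the vehicle libraries, 18, 14 and 9 with oxamate, and 6, 6 and 3 with both compounds, and every library with both compounds lay below the other 6. Its log2 fold change was −1.39 ± 0.41 (SE; adjusted p = 0.0297) against oxamate and −1.26 ± 0.41 (adjusted p = 0.0347) against vehicle by edgeR's quasi-likelihood test. With the counts of Hspa1b added, the pair gave −1.29 (adjusted p = 0.0406) and −1.20 (adjusted p = 0.0414), and 0.09 (adjusted p = 0.933) for oxamate against vehicle. The call against oxamate was lost without oxamate library 4 or 5 (adjusted p = 0.0865 and 0.078) or library 7, 8 or 9 (0.0614, 0.0542 and 0.159). That against vehicle was lost without vehicle library 2 or 3 (0.089 and 0.0948) or library 7, 8 or 9 (0.0581, 0.0522 and 0.179), and by DESeq2's test (0.105).

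Of 6 other genes of heat shock factors and their binding proteins tested, 1 was higher with oxamate against vehicle, Hsf5, and with both compounds Hsf5 was higher and Hsfy2 lower in each comparison. That is 16.7%, 33.3% and 33.3% called, beside 5.19%, 11.2% and 18.0% of all genes tested. Hsf2bp, Hsf3, Hsbp1 and Hsbp1l1 did not pass edgeR's test with TMM scaling and all 9 libraries in any of the 3. With oxamate against vehicle 1 gene of this list was lower by DESeq2's test and with filterByExpr. Hsbp1l1 had 726 to 809 normalized counts in vehicle and 628 to 661 with oxamate, without overlap. Hsf5, a family member of the testis, rose in steps, from 12422, 12613 and 13123 normalized counts in vehicle to 16468, 17124 and 17522 with oxamate and 20609, 19585 and 19458 with both compounds. No 2 groups overlapped. The log2 fold change was 0.43 ± 0.06 (SE; adjusted p = 0.000129, edgeR's quasi-likelihood test) when oxamate was compared with vehicle and 0.62 ± 0.06 (adjusted p = 3.28e-07) when both compounds were. The further difference of 0.20 between both compounds and oxamate (adjusted p = 0.0331) lost its call with total counts as the scaling and without library 5, 6, 7, 8 or 9 (adjusted p up to 0.14). Hsfy2, another testis-expressed member, had 5232 to 5886 normalized counts in vehicle, 4848 to 5654 with oxamate and 4423 to 4767 in libraries 7 to 9, and its log2 fold change against vehicle was −0.32 ± 0.07 (adjusted p = 0.00332). Against oxamate it was −0.26 ± 0.07 (adjusted p = 0.0205, edgeR's quasi-likelihood test), a call lost without library 5, 6, 7 or 8 (0.122, 0.0706, 0.108 and 0.108).

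**Figure D3:**
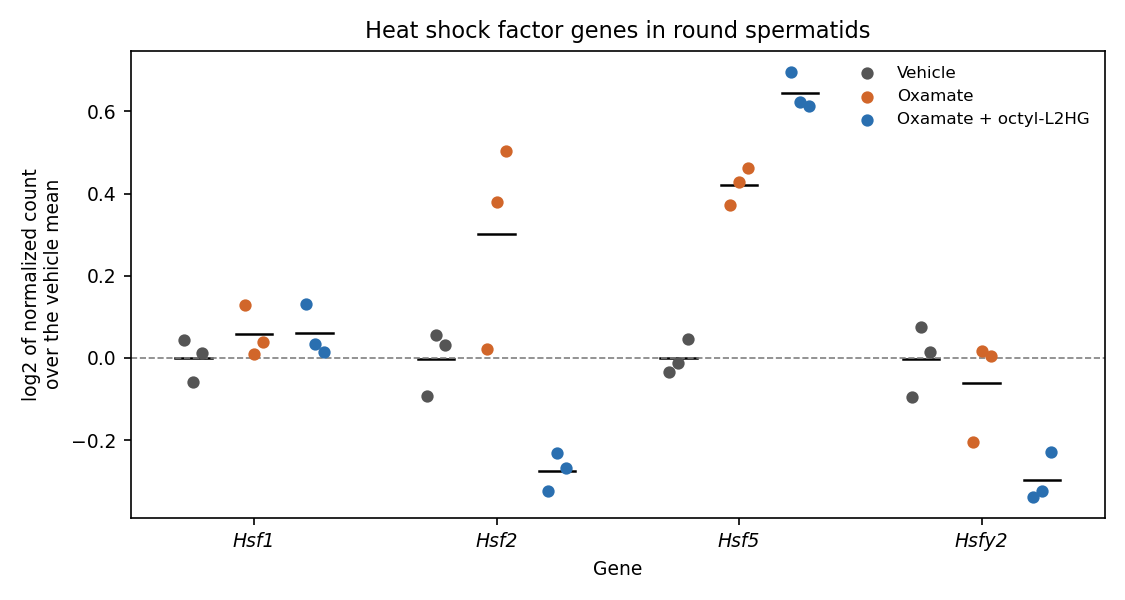
Log2 of the normalized count over the vehicle mean for Hsf1, Hsf2, Hsf5 and Hsfy2 in each of the 9 libraries, with lines at the group means of these values. Hsf1 stays near 0 in all groups, Hsf2 is above vehicle in oxamate libraries 5 and 6 and below it with both compounds, Hsf5 rises in steps, and Hsfy2 is below vehicle with both compounds.

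Around these genes, 115 of 119 other chaperone and heat shock genes were tested. With oxamate against vehicle 8 were higher and 0 lower at an adjusted p under 0.05 by edgeR's quasi-likelihood test, with 15 and 9 at an unadjusted p under 0.05 and 1 lower by DESeq2's test. For both compounds against oxamate 13 were higher and 7 lower, and against vehicle 23 and 9. Of the 115, 6.96%, 17.4% and 27.8% were called in the 3 comparisons, beside 5.19%, 11.2% and 18.0% of all genes tested (3.97% higher and 1.22% lower, 3.18% and 8.06%, and 7.48% and 10.6%). Their median log2 differences in the 3 comparisons were −0.021, 0.053 and 0.035, beside −0.011, −0.039 and −0.045 for all genes tested. For tested genes with a mean of at least 100 normalized counts the medians were 0.01, 0.01 and 0.032. Of the 25128 genes tested 10715 reach that level. Genes below it are harder to call, so the shares of all genes are not matched by level. The counts higher depended on single libraries: without oxamate library 4 they were 13, 16 and 35. With oxamate against vehicle 5, 4, 5 and 5 were higher without vehicle library 1, 2 or 3 or library 8. With both compounds against oxamate 4, 3, 4 and 8 were higher without library 5, 7, 8 or 9, and against vehicle 14, 12 and 13 without vehicle library 3 or library 7 or 8. With total counts as the scaling the counts higher with both compounds were 6 and 13.

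The J-domain co-chaperones, the family of DNAJB1, were the longest of these lists. Of 44 tested, 6 were higher and 0 lower with oxamate against vehicle (9 and 4 at an unadjusted p under 0.05), 8 higher and 2 lower with both compounds against oxamate, and 16 higher and 3 lower against vehicle. That is 13.6%, 22.7% and 43.2% called, beside 5.19%, 11.2% and 18.0% of all genes tested. The share of all genes includes many low genes, which are harder to call, and no share at like levels was computed. Single libraries moved the counts of this list. With oxamate against vehicle 10 were called without oxamate library 4, and 3, 2, 3 and 3 without vehicle library 1, 2 or 3 or library 8. With both compounds against oxamate 3, 2, 4 and 6 were called without library 5, 7, 8 or 9, and against vehicle 12, 10 and 12 without vehicle library 3 or library 7 or 8. With total counts as the scaling 5 and 14 were called with both compounds, and in a fit of 2 groups 2 with oxamate against vehicle. Dnajc10, a J protein of the endoplasmic reticulum, had a mean of 3460 normalized counts in vehicle and 4948 with both compounds (log2 fold change 0.50 ± 0.07, adjusted p = 1.35e-05), and Dnajb2 6310 and 8739 (0.45 ± 0.07, 0.000191). Dnajb8 fell from 3136 in vehicle to 2286 with both compounds (−0.48 ± 0.06, adjusted p = 1.97e-05). Dnajc24 was lower too, at 165 against 234 in vehicle (−0.52 ± 0.12, adjusted p = 0.0048, called under all 16 alternatives) and 226 with oxamate (−0.48, adjusted p = 0.0165), the latter lost without library 5, 7 or 9 (0.123, 0.0768 and 0.0771). The third gene lower against vehicle was Dnajb3, at 25095 against 27876 (−0.17 ± 0.06, adjusted p = 0.0438), whose call was lost in 9 of 16 alternatives, without vehicle library 1, 2 or 3, oxamate library 5 or library 7, 8 or 9 among them (0.0535 to 0.181).

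Among the 10 other HSP70 and HSP110 genes tested, 1 was higher with oxamate, Hyou1, the HSP110 of the endoplasmic reticulum (822 to 1072 normalized counts, log2 fold change 0.39 ± 0.08, adjusted p = 0.00413). With both compounds 1 was higher and 2 lower against oxamate and 2 higher and 2 lower against vehicle, the lower ones being Hspa1a and Hspa12b both times (30.0% and 40.0% of the 10 called, beside 11.2% and 18.0% of all genes tested). The one higher against oxamate was Hspa4, an HSP110 gene (0.23 ± 0.07, adjusted p = 0.0483), and those higher against vehicle were Hyou1 and Hspa9, the mitochondrial HSP70 gene (0.19 ± 0.06, adjusted p = 0.0286). The Hspa4 call was lost in 9 of 16 alternatives, without vehicle library 2 or 3, oxamate library 4 (log2 difference 0.15) or 5 or library 7, 8 or 9 among them (adjusted p from 0.0549 to 0.213), and that of Hspa9 in 7 of 16, without vehicle library 1, 2 or 3 or library 7, 8 or 9 and with total counts (0.0514 to 0.143). The Hyou1 call against vehicle was lost without vehicle library 2 or library 8 or 9 (0.0802, 0.0506 and 0.0616). The Hspa12b call against oxamate was lost without library 5 or 7 (adjusted p = 0.0629 and 0.0645). Without library 5 or 7, 0 of the 10 were called against oxamate, and 1, a lower one, without library 4, 8 or 9. Against vehicle 1 was called without vehicle library 2 or library 8 or 9, and without oxamate library 4 there were 3 higher and 2 lower. With oxamate against vehicle 2 were higher without that library. Hsp90b1, the HSP90 of the endoplasmic reticulum, was higher with both compounds at 15051 against 11468 with oxamate (0.37 ± 0.07, adjusted p = 0.00169) and 11926 in vehicle (0.31 ± 0.07, adjusted p = 0.003), and Trap1, the mitochondrial one, was not called.

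Partners of HSP90 and HSP70 and the chaperonins, listed with Clpb, form short lists, to be read beside the 5.19%, 11.2% and 18.0% of all genes called in the 3 comparisons. Of 20 co-chaperones of HSP90, 0, 1 and 0 were higher in the 3 comparisons and none lower (at an unadjusted p under 0.05, 1, 2 and 5 higher and 1, 0 and 1 lower). The one higher against oxamate was Ttc4 (0.25 ± 0.06, adjusted p = 0.00997), a call lost without library 5, 7 or 8 (0.0661, 0.0515 and 0.0528), and without library 4 there were 2. Against vehicle 4 were higher without oxamate library 4 or in a fit of 2 groups, 3 with no filter or by DESeq2's test, 1 with DESeq2's size factors, with filterByExpr or without library 9, and 1 was lower without vehicle library 1. Of 11 partners of HSP70, 2 were higher in the comparison of both compounds with vehicle, St13 and Bag4, and both calls were lost with total counts as the scaling (adjusted p = 0.0924 and 0.12). The St13 call was also lost without vehicle library 3 or library 7 or 8 (adjusted p = 0.0612, 0.109 and 0.0753), and the Bag4 call without vehicle library 2 or 3 or library 7, 8 or 9 (0.0979, 0.107, 0.0624, 0.114 and 0.122). Of the list of 12, the chaperonin genes themselves (Hspd1, Hspe1, Tcp1 and the Cct genes) did not pass edgeR's test with TMM scaling and all 9 libraries in any comparison (over the list, 1, 1 and 1 higher and 1, 2 and 1 lower at an unadjusted p under 0.05). Over the list, DESeq2's test called 0, 1 and 1 higher and 0, 1 and 0 lower. Against oxamate 1 was higher and 1 lower with DESeq2's size factors, no filter, filterByExpr or a fit of 2 groups or without library 4, whereas with total counts 0 were higher and 2 lower. Against vehicle 0 were higher and 2 lower with total counts, 1 and 1 in a fit of 2 groups or without library 4, and 0 and 1 without vehicle library 2. With oxamate against vehicle 1 was lower without library 4. Clpb, a disaggregase of the HSP100 family and no chaperonin, was lower with both compounds against oxamate (−0.25, adjusted p = 0.0194), a call lost without library 5, 7, 8 or 9 (adjusted p = 0.0541, 0.0858, 0.0843 and 0.0635). Of 6 small heat shock protein genes tested, Hspb7 was higher with both compounds (0.47 against oxamate and 0.49 against vehicle on the log2 scale, adjusted p = 0.0019 and 0.000568) and Hspb9 lower against vehicle (−0.31, adjusted p = 0.0197). The Hspb9 call was lost without vehicle library 1, when the log2 difference was −0.19 (adjusted p = 0.149), and without library 7, 8 or 9 (0.082, 0.0614 and 0.077). Against oxamate 1 partner of HSP70 was higher without library 4, and also with DESeq2's size factors or test, no filter or filterByExpr. With both compounds against vehicle 2 small heat shock protein genes were higher and 1 lower without oxamate library 4, under the same settings or in a fit of 2 groups. There were 2 higher and 0 lower without library 9. With oxamate against vehicle 1 of these genes was lower without library 4.

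Of the genes that heat is known to raise, 0%, 16.7% and 16.7% were called in the 3 comparisons, beside 5.19%, 11.2% and 18.0% of all genes tested. Of the 18 tested, which overlap the lists above, 0 were higher and 0 lower with oxamate against vehicle (2 and 1 at an unadjusted p under 0.05), 1 higher and 2 lower with both compounds against oxamate, and 0 higher and 3 lower against vehicle (1 and 2, and 4 and 4, at an unadjusted p under 0.05). The directions depended on the setting. Against vehicle 3 were higher and 3 lower without oxamate library 4 or in a fit of 2 groups, 3 and 2 with no filter, and 2 and 1 by DESeq2's test. Without vehicle library 2 or 3 or library 7 there were 0 higher and 1 lower, and without library 9 none in either direction. Against oxamate 0 were called without library 7 or 9, and 1, a lower one, without library 4, 5 or 8. With oxamate against vehicle 1 was higher without library 4 and 1 lower with filterByExpr. Those lower against vehicle included Hspa1a and Serpinh1, a low gene with 20.2 normalized counts in vehicle and 11.2 with both compounds, whose call was lost by DESeq2's test (adjusted p = 0.144), with no filter (0.0722) and without vehicle library 2 or 3 or library 7 or 9 (0.0767, 0.0731, 0.0749 and 0.152). Their median log2 differences were −0.007, 0.011 and 0.027 in the 3 comparisons.

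**Figure D4:**
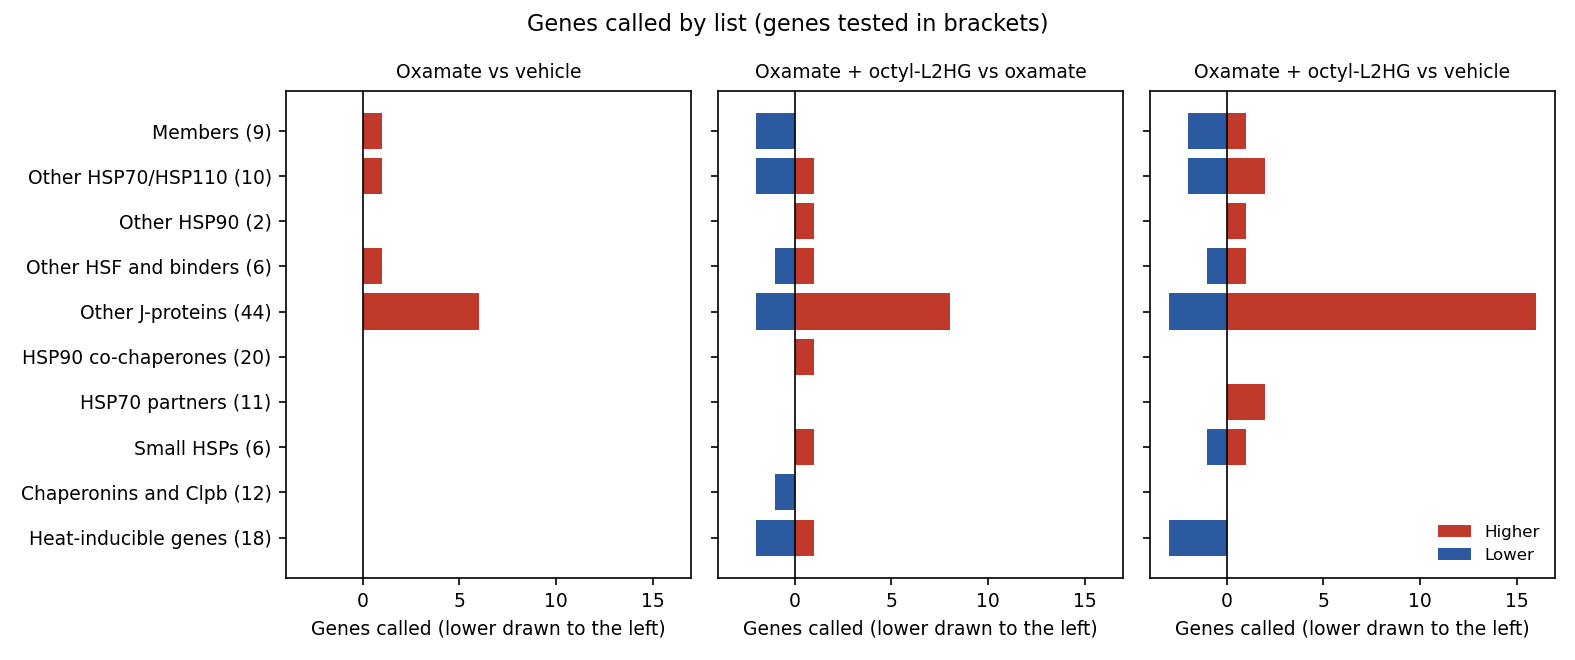
Number of genes called at an adjusted p under 0.05 by edgeR's quasi-likelihood test in each list, with higher genes drawn to the right in red and lower genes to the left in blue, and the genes tested in brackets. The J-domain co-chaperones, the longest list, have 6, 10 and 19 of 44 called, and the heat-inducible genes have 0, 3 and 3 of 18.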

How the data were processed

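RNA of RS was measured in 9 libraries, 3 per group. Per the labels and the methods, the authors trimmed reads with cutadapt 2.10, aligned them to GRCm39 with TopHat2 2.1.1 and Ensembl annotation, and deposited raw counts per gene from HTSeq 2.01 together with a normalized signal, the count divided by a DESeq2 1.36.0 size factor per library. Labels and methods name different sequencing instruments, and the strand setting of the counting is not given in the sources used here. The table lists 55414 genes, of which 6250 rows are blank.

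A gene was tested if its counts over the 9 libraries came to 10 or more, which left 25128 genes. The test was the quasi-likelihood test of edgeR 4.0.16 (R 4.3.3) after TMM normalization. One robust fit took in every library, with the group as its only term, and p-values were adjusted by Benjamini-Hochberg over all genes tested, at 0.05. Standard errors were taken from the F statistic. Normalized counts in the text are the deposited signal. Depth sets the precision of low genes, and the floor of 3 counts covers counting error only. The shares called of all genes tested include low genes and were not matched by level to any list. Exon lengths and the 75-base windows that genes share came from a GRCm38 annotation matched by gene identifier, from which no gene coordinate was taken. Promoters came from RefSeq, GRCm38.p6.

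On simulated data for oxamate against vehicle (24598 genes), 100 of 100 genes changed 2-fold and 59 of 100 changed 1.3-fold were called, with 11 unchanged genes. Alternatives were DESeq2 1.42.0's test, scaling by its size factors or by total counts, no filter or edgeR's filterByExpr, fits of the 2 groups compared, Hspa1a and Hspa1b summed, and each library left out.

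The genes described and the lists of related genes were chosen with earlier results of these data known. All 10 genes are named. From each list of related genes, those named were called genes with a mean of at least 100 normalized counts and the largest changes, at most 2 per direction and comparison, or all called genes, whatever their level, where a list had 5 or fewer in a direction. Hspa1a was always named, and 3 genes of most similar pattern were named for the 2 genes with the widest range. Trap1 and the genes that share windows were named after their values were seen. Some of what falls within the rule is not reported here.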

Additional observations from a re-analysis of the deposited data

How the results depend on the processing

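The labels name no pairing, as the groups share no replicate number, so no paired analysis was made, and a pairing by position within the groups was not tested. The 27 differences of the 9 tested genes were recomputed under 16 alternatives each, 432 values: 373 kept their direction and their side of the threshold, 24 lost a call, 12 gained one and 23, none called and none beyond 0.0684, changed sign. The falls of Hspa1l in both comparisons and of Hsf2 against oxamate kept their calls throughout; the calls that were lost were those of Hsf2 with oxamate against vehicle (11 of 16), Hsf2 with both compounds against vehicle (5) and Hsp90ab1 against vehicle (8). Calls gained were Hsp90aa1 (6) and Hspa2, Hsp90ab1 and Dnajb1 (1 each) against oxamate, and Hsp90aa1 against vehicle (3). For the other chaperone genes called, 772 values kept their call and 185 lost it, with no change of sign. The causes were not tested.

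With a library left out, the differences that turned ranged from −0.0686 to 0.0267 for Hspa4l, −0.0939 to 0.0234 for Hsp90aa1 and −0.003 to 0.1172 for Hsp90ab1 (oxamate against vehicle), −0.1068 to 0.0407 for Hspa8 and −0.0586 to 0.0155 for Hsf1 (both compounds against oxamate), and −0.0453 to 0.0684 for Dnajb1 (both against vehicle). Without oxamate library 4, the log2 differences of oxamate against vehicle changed sign for Hspa4l, Hsp90aa1 and Hsp90ab1, and those of both compounds against oxamate for Hspa8 and Hsf1. Against oxamate, Hspa8 also turned to 0.0057 with DESeq2's size factors or test, 0.0241 with no filter, 0.0015 in a fit of 2 groups and 0.0099 without library 6, and Hsf1 to 3e-04 with DESeq2's size factors, 2e-04 with its test and 0.0188 with no filter. Against vehicle, Dnajb1, at −2e-04, turned to 0.0214 with DESeq2's size factors or test, 0.0453 with no filter, 0.0133 with filterByExpr, 0.0163 in a fit of 2 groups, 0.0684 without vehicle library 1 and 0.0299 without library 7. With total counts, Hspa2 (−0.0013), Hspa8 (−0.0131) and Hsf1 (−0.0248) turned negative.

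For oxamate against vehicle, the count of the 9 genes called higher was 0 with total counts, filterByExpr or a fit of 2 groups, and 0 to 1 with a library left out. Of the other chaperone genes, 4 were higher in a fit of 2 groups, 2 were lower with filterByExpr and 1 by DESeq2's test, and with a library left out 4 to 13 were higher and 0 to 3 lower. For both compounds against oxamate, 1 of the 9 was higher with DESeq2's size factors, no filter or filterByExpr, 2 by DESeq2's test, and 0 to 2 with a library left out. Other chaperone genes called higher numbered 6 with total counts, 21 with no filter or by DESeq2's test and 20 with filterByExpr, and with a library left out 3 to 16 were higher and 1 to 9 lower. For both compounds against vehicle, 0 of the 9 were higher with total counts, 2 with no filter or a fit of 2 groups, and with a library left out 0 to 2 were higher and 1 to 2 lower. Other chaperone genes called higher numbered 13 with total counts and 35 in a fit of 2 groups, and with a library left out 12 to 35 were higher and 4 to 12 lower. Any difference among the groups was called for 4 of the 9 with no filter or by DESeq2's test, and for 2 to 5 with a library left out. Depth limits Hspa1b and Hspa1a, with 2 and 97 counts.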
